A study of Mus musculus with 18 samples.

Results

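The electron transport chain of mitochondria was followed through 97 nuclear genes of the 20703 in the expression table, chosen by symbol alone. They were the genes whose symbols begin with Nduf (NADH dehydrogenase, complex I), Sdha to Sdhd (succinate dehydrogenase, complex II), the Uqcr genes with Cyc1 (complex III), Cox4i to Cox8 (cytochrome c oxidase, complex IV) and the Atp5 genes (ATP synthase, complex V), and 7 genes with a pseudogene symbol ending in -ps were dropped. Complex I gave 42 subunits, of which 7 belong to its catalytic core. Complex II gave 4, complex III 9, complex IV 17 and complex V 17, and 8 Ndufaf genes encode assembly factors that help to build complex I without remaining in it. The rule sorts by symbol, so Ndufa4 was counted in complex I and Cox7a2l in complex IV.

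Complexes I and II pass electrons from NADH and succinate to ubiquinone, complex III passes them on through cytochrome c, and complex IV gives them to oxygen. Complexes I, III and IV pump protons as they do so, and complex V uses the resulting gradient to make ATP. Most subunits are encoded in the nucleus and a small set in mitochondrial DNA, and complex II is wholly nuclear. Mouse embryonic stem cells kept in LIF use both glycolysis and oxidative phosphorylation, and exit from pluripotency is known to be accompanied by changes in mitochondrial metabolism.

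The RNA came from E14 mouse embryonic stem cells (mESCs) that were wild type (WT) or lacked Nsd1, which encodes a histone methyltransferase for lysine 36 of histone H3. The knockout (KO) was a deletion of exon 5 in 2 lines, KO-1 and KO-2, each a single clone, made in E14 cells that carried a 3xFlag tag knocked in at Nsd1; the sources used here do not say whether the WT libraries carried that tag. Cells were taken at day 0, with LIF and fibroblast feeders, and at day 2 and day 4 after both had been removed, with 2 biological replicates for each line and day and 18 libraries in all. KO values below pool both clones (n = 4) and are set against WT (n = 2). No label ties a replicate to a separate thaw or differentiation, so p-values measure the spread between these libraries. Library totals recovered from the table ran from 9309874 to 23921193 counts with a median of 15721347.

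Nsd1 itself followed the labels. At day 0 its normalized count, a read count divided by the size factor of its library, was 3374 and 3660 in WT, 837 and 711 in KO-1 and 689 and 635 in KO-2. It stayed lower in every KO library at day 2 (WT 2773 and 3344, KO 854 to 1024) and at day 4 (WT 2425 and 2111, KO 575 to 1103). The reads that remained cannot be placed on exons with a table of gene totals.

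The stem cell markers were present in every library and none of the 9 was at 0. Their summed normalized count was 75751 and 76279 in WT at day 0 and 73221 to 78409 in KO. Within that sum 3 of the 9 markers rose in KO and 2 fell (log2 changes from -0.55 to 0.34). At day 2 the sum was 27570 and 24135 in WT and 29262 to 37047 in KO, and 6 of the 9 markers rose in KO and 2 (Pou5f1 and Utf1) fell. At day 4 it was 10834 and 10955 in WT and 21466 to 24426 in KO, and 7 rose and 2 (Pou5f1 and Tbx3) fell. The 6 mesendoderm markers summed to 306 and 297 at day 2 in WT and to 72.6 to 109 in KO, where 2 of them fell. At day 4 they summed to 32378 and 31361 in WT, led by T (brachyury), and to 328 to 871 in KO. The part of these marker differences in the results at days 2 and 4 was not tested, and fewer cells of a type and less RNA per cell cannot be told apart in bulk RNA. The 11 feeder markers were also unequal at day 0, at 5034 and 4774 in WT and 7338 to 8564 in KO, with Col1a1 the most abundant, and 5 of them rose in KO, 1 fell (Pdgfrb, -0.67) and 5 were not called (median 0.13); their part in the results at day 0 was not tested.

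Transcript levels overlapped widely between the complexes and differed in their medians. Per kilobase of the longest coding transcript, WT cells of day 0 had a median level of 1747 normalized counts for complex V, 1278 for complex III, 1125.5 for complex II, 1101 for complex IV, 834 for the catalytic core of complex I, 565 for its other subunits and 161 for the Ndufaf factors. Atp5b, the catalytic beta subunit of ATP synthase, was the most abundant member at 17131 per kilobase. The highest of other classes included Cox4i1 at 4194, Uqcrc1 at 3193, Ndufb10 at 2270, Sdha at 1989 and Ndufaf2 at 310. The lowest were Uqcrq at 726, Sdhc at 532, Ndufs8 at 520, Atp5md at 180 and Ndufaf4 at 108 per kilobase. Per kilobase, the highest assembly factor thus lay below the lowest subunit of the complex I core. These ranks depend on the transcript length used. Ndufaf4 was divided by 3632 bases, and its mean of 548.9 normalized counts over all libraries was above those of Ndufaf2 (252.2) and Ndufs8 (426).

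Some members were barely detected. Ndufs6b, Ndufb4c, Cox6c2 and Cox8c had a mean under 10 normalized counts, and the first 3 of these are annotated as processed pseudogenes in GENCODE M21. Cox8c was at 3.66 per kilobase in WT at day 0. Ndufb2, an accessory subunit of complex I, was at 4.74 per kilobase and its longest annotated transcript is 4371 bases, so this level is uncertain. Ndufs5 was at 25.2 and 46.0 in WT at day 0 (normalized counts) while its copy Ndufs5-ps had 226 and 203, and reads of the pair may have been split between them. All 97 members entered the tests, and 88 had a mean of 100 or more.

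Promoter sequence was available for 76 of the 97 genes, matched by symbol to RefSeq windows of 300 bases on GRCm38.p6, 250 before the start site and 50 after it. Nuclear respiratory factor 1 (NRF1), ETS family factors (GABP among them) and YY1 are known regulators of such genes. The NRF1 core GCGCATGC was found on either strand in 12 windows (15.8%), against 4.71% of the 13452 windows of all genes in the table. The ETS core CCGGAAG was in 18 (23.7% against 15.5%) and the YY1 letters AAGATGGCG in 7 (9.21% against 2.6%). The NRF1 core overlaps its own reverse complement GCATGCGC, so 1 stretch can match on both strands and was counted once per window. A match describes letters and not a bound site. To show what such a match looks like, 30 bases upstream of the start site that hold it are printed for 8 members that were lower in KO at day 2, with the matching letters in capitals and each written 5' to 3' along its gene; the first 4 hold the NRF1 core and the last 4 the ETS core.
Cox6a1 (chr5:115349102-115349131, minus strand): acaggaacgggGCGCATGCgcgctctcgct
Atp5k (chr5:108434431-108434460, minus strand): ctttcactgcgGCGCATGCgcctttctggc
Sdhb (chr4:140961206-140961235, plus strand): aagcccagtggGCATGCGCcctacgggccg
Ndufa6 (chr15:82354356-82354385, minus strand): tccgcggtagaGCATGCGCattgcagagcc
Cox6b1 (chr7:30626124-30626153, minus strand): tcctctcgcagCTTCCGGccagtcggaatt
Uqcr11 (chr10:80406869-80406898, minus strand): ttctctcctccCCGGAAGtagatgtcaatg
Atp5e (chr2:174464185-174464214, minus strand): tacggccacagCTTCCGGtagccgctcggc
Atp5h (chr11:115419939-115419968, minus strand): caaggagagaaCTTCCGGcaactctcttcc
NRF1 letters were also present in the window of Ndufaf4, whose pattern differed from these members and is given further on. Members not called at day 2 held such letters too, among them Ndufa8 and Ndufa11 (NRF1) and Sdhd and Ndufb7 (ETS). Whether members with these letters fell more often than those without was not tested. Of the 8 genes shown, Cox6a1, Atp5k, Sdhb and Uqcr11 held both the NRF1 and the ETS letters in their windows of 300 bases.

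With both clones pooled, more transcripts of the chain fell in KO cells at day 2 than on the other days, which did not hold for KO-1 alone (50, 41 and 57 lower members at days 0, 2 and 4) nor without WT replicate 1 of day 2 (22 at that day). At day 2 61 of the 97 genes (62.9%) fell and 2 rose at an adjusted p under 0.05 (limma with Benjamini-Hochberg adjustment over all 20703 genes), whereas 24.2% of all genes fell and 21.8% rose. At day 0, 22 members fell and 1 rose, beside 14.4% and 15.3% of all genes. At day 4, 25 fell and 2 rose, beside 19.2% and 18%. Over the members the median log2 fold change was -0.19, -0.29 and -0.17 in order of day, on the variance-stabilized (VST) scale of the deposited values, which understates fold changes, most at low counts but also in abundant members. On the recovered counts the medians were -0.32, -0.52 and -0.30 (limma-voom), beside -0.03, -0.14 and 0.00 over all genes. Values given as a percent of the WT mean count are not compressed in this way. The median over all genes was 0.00, -0.02 and 0.00.

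**Figure D1:**
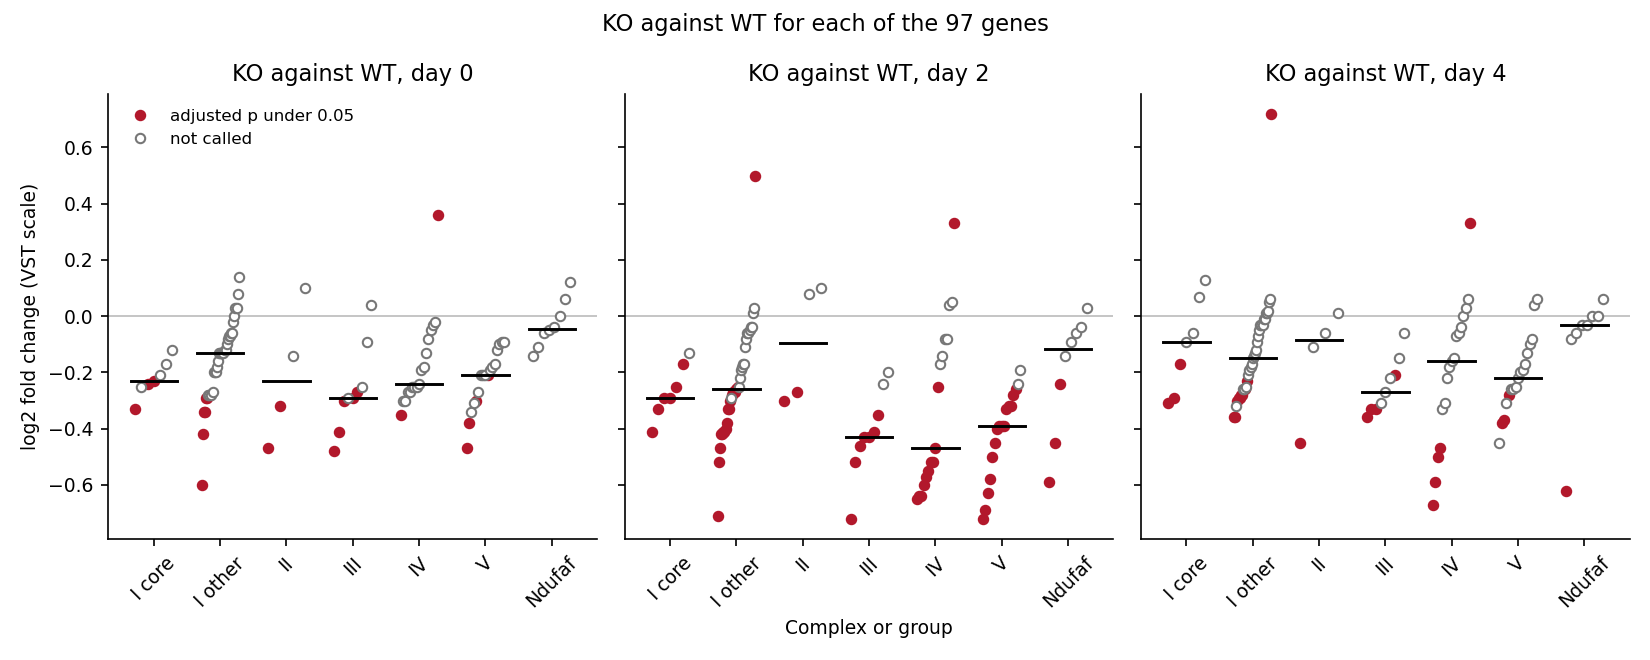
KO minus WT as log2 fold change on the VST scale (vertical axis) for the 97 genes, by complex (horizontal axis), at days 0, 2 and 4. Each point is a gene, filled where the adjusted p was under 0.05, and black bars are the class medians; at day 2 these were -0.47 for complex IV and -0.11 for the Ndufaf factors, and the 2 filled points above 0 are Ndufb11b and Cox7b2.

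The number of larger changes depended on the scale. At the thresholds of the study for a differentially expressed gene, adjusted p under 0.01 and a log2 change beyond 0.58, 1, 11 and 3 members were lower at days 0, 2 and 4, beside 0.879%, 2.37% and 3.91% of all genes, on the VST scale. On the recovered counts, where changes are not compressed, limma-voom put 3, 23 and 11 members past the same thresholds, beside 6.86%, 13.6% and 13% of all genes. For 57, 63 and 38 members at the 3 days no KO library reached the lower of the WT libraries, beside 24.3%, 31.4% and 25.9% of all genes. Since most members are abundant, the shares of genes with a mean of 100 or more that fell are also given, and these were 15.9%, 23.8% and 23.7%. With the clones pooled, the share of members that fell was 22.7% at day 0 and 25.8% at day 4, the latter near that of abundant genes. With the clones fitted as separate groups 41, 71 and 41 members fell at the 3 days, beside 17.8%, 26.6% and 21.9% of all genes in that fit. In the pooled fit 66 members fell on at least 1 day, beside 39.2% of all genes, 8 fell on every day (among them Cox7a2, Ndufa9, Ndufb11, Ndufb4, Sdhc and Uqcrc2), beside 4.09%, and 29 were called at day 2 alone, beside 11.4%. A call at day 2 alone is not a tested difference between days, and the test of that difference is given further on. The counts depended on the WT libraries: without WT replicate 1 of day 2, 22 members fell at that day. Without either WT library of day 0, 10 fell at day 0. At day 4, 13 fell without WT replicate 1, 7 without WT replicate 2 and 16 without either KO-1 library.

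Short genes as a class moved with the members. The median longest transcript of the members was 875 bases, against 3033 for genes with a mean of 10 or more, and 74 members were among the 2907 shortest genes of these (20% of them, up to 1640 bases). Of these short genes, 16.1%, 40.4% and 19.5% fell at the 3 days, beside 14.4%, 24.2% and 19.2% of all genes. The median log2 changes of the short genes were -0.05, -0.11 and -0.03. The mean deviation of these short genes minus that of an equal share of the longest was 0.25 and 0.15 in WT at day 2, 0.06 and -0.06 in KO-1 and -0.09 and -0.15 in KO-2. After each library was corrected for transcript length and GC content, 28, 46 and 30 members fell at the 3 days, beside 17.6%, 26.0% and 20.3% of all genes. The corrected medians of the members were -0.14, -0.17 and -0.12. The part of transcript length in the results was not tested beyond this correction.

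**Figure D2:**
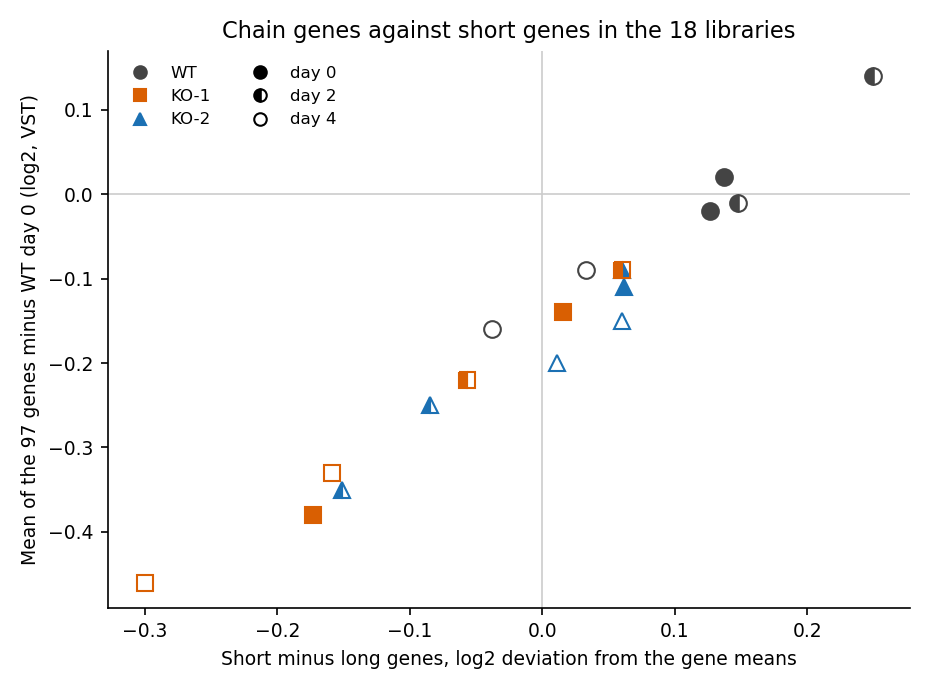
Mean of the 97 genes relative to WT day 0 (vertical axis, log2 on the VST scale) against the deviation of short minus long genes (horizontal axis, log2) in each of the 18 libraries. Shapes and colours mark WT, KO-1 and KO-2, and the filling marks the day; KO-1 replicate 1 of day 4 was lowest on both axes (-0.3 and -0.46) and WT replicate 1 of day 2 highest (0.25 and 0.14).

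Complex I, which takes electrons from NADH, had 24 of its 42 subunits lower in KO at day 2, beside 24.2% of all genes. In the catalytic core, which holds the flavin, the iron-sulfur clusters and the quinone site, 6 of 7 fell (median -0.29), and the exception was Ndufs1, the largest subunit, at -0.13 ± 0.06 (SE, adjusted p = 0.0696, limma). At day 0 and day 4 the core had 3 lower genes each, beside 14.4% and 19.2% of all genes. Ndufs8, an iron-sulfur subunit, was at 671 and 577 at day 2 in WT (normalized counts, here and below), 424 and 384 in KO-1 and 329 and 298 in KO-2. No KO library reached the lower WT value, the KO mean was 57.5% of WT, and the log2 change was -0.41 ± 0.08 (adjusted p = 3.96e-04, limma). Ndufv2, another iron-sulfur subunit, fell at day 2 (-0.29 ± 0.06, adjusted p = 9.88e-04, limma) and at day 4 was at 1010 and 1085 in WT and 1079 to 1300 in KO, where the groups overlapped.

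Among the 35 other complex I genes, 18 fell at day 2 and 1 rose, beside 24.2% and 21.8% of all genes, with a median of -0.26. Ndufb8, a membrane arm subunit often used as a marker of assembled complex I, was at 1905 and 1517 at day 2 in WT, 1066 and 864 in KO-1 and 776 and 678 in KO-2. Its KO mean was 49.4% of WT (log2 change -0.71 ± 0.11, adjusted p = 2.94e-05, limma). Its call at day 4 (-0.29) was lost under 11 of the alternatives. Ndufa9, a subunit at the junction of the 2 arms of the complex, was at 1537 and 1527 in WT and 982 to 1065 in KO at day 2, with no overlap, and fell on every day (-0.34, -0.41 and -0.28). Ndufa1, a small membrane arm subunit named by the study, had 334 and 204 in WT at day 2 and 159 to 274 in KO. Its groups overlapped on every day and it passed the test on none (at day 2 -0.17 ± 0.11, adjusted p = 0.228, limma). The members that were not called at day 2 in this class included Ndufb5, Ndufb9, Ndufc2 and Ndufv3, with changes of -0.04, -0.05, -0.06 and -0.08.

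Complex II was divided within itself. Sdhc, a membrane anchor, was at 1747 and 1630 at day 0 in WT, 801 and 1147 in KO-1 and 1199 and 1175 in KO-2, and KO stayed below WT on all 3 days. Its log2 changes were -0.47, -0.30 and -0.45 in order of day, with adjusted p of 0.00256, 0.0270 and 0.00228 (limma). Sdhb, the iron-sulfur subunit, fell at day 0 (-0.32) and day 2 (-0.27) and at day 4 was at -0.06. Sdha, the flavoprotein that oxidizes succinate, showed no such decrease: it had 5810 and 5726 in WT at day 0 and 5917 to 6503 in KO, and its changes were 0.10, 0.10 and 0.01 with adjusted p of 0.236, 0.171 and 0.948 (limma). Sdhd, the second anchor, passed the test on no day. The call of Sdhb at day 0 was lost without WT replicate 1 (adjusted p = 0.211), without KO-1 replicate 1 (0.0542) and with each day fitted alone (0.0770, limma). The calls at day 2 were unstable too: without WT replicate 1 of that day adjusted p was 0.239 for Sdhc and 0.196 for Sdhb, and with the length and GC correction it was 0.0812 for Sdhb (limma).

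In complex III, which passes electrons from ubiquinol to cytochrome c, 7 of 9 genes fell at day 2 (median -0.43), 5 at day 0 (-0.29) and 4 at day 4 (-0.27). In the same order of days 24.2%, 14.4% and 19.2% of all genes fell, and 23.8%, 15.9% and 23.7% of abundant ones. Uqcrc2, a core protein of the matrix side, was at 2808 and 2407 at day 2 in WT, 1863 and 1607 in KO-1 and 1518 and 1601 in KO-2. All KO libraries were lower, at 63.2% of the WT mean, and the change was -0.52 ± 0.07 (adjusted p = 4.98e-06, limma). Uqcrq, a small subunit that binds near the heme protein, had 1304 and 963 in WT at day 2, 658 and 501 in KO-1 and 471 and 355 in KO-2. The KO mean was 43.8% of WT (-0.72 ± 0.14, adjusted p = 2.78e-04, limma). Uqcrc1, the partner of Uqcrc2, fell at day 0 (-0.41) and day 2 (-0.43), and at day 4 the groups overlapped at 2922 and 2909 in WT and 2492 to 3025 in KO.

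Complex IV had the lowest class median at day 2 on the VST scale, but not the lowest class mean. That mean includes Cox6c2 and Cox8c, with means of 2.1 and 1.3 normalized counts over all libraries, and Cox7b2, which rose. Relative to WT of that day, the means in KO libraries were -0.14 to -0.48 for complex IV. They were -0.27 to -0.54 for complex III and -0.24 to -0.57 for complex V. In complex IV 10 of 17 genes fell at day 2 and 1 rose, beside 24.2% and 21.8% of all genes. The median was -0.47, and 8 of the 10 were below -0.50 on the log2 scale. At day 0, 1 fell and 1 rose (median -0.24), so that the 5.9% that fell lay under the 14.4% of all genes. At day 4, 4 fell and 1 rose (median -0.16), and the 23.5% that fell lay near the 19.2% of all genes and the 23.7% of abundant ones. Cox5b, a zinc-binding subunit named by the study, was at 2262 and 1901 at day 2 in WT, 1449 and 1228 in KO-1 and 1069 and 826 in KO-2. No KO library overlapped WT, the KO mean was 54.9% of WT, and the change was -0.65 ± 0.14 (adjusted p = 7.00e-04, limma). At day 4 Cox5b was 1431 and 1513 in WT, 893 and 1161 in KO-1 and 1595 and 1389 in KO-2, so that KO-1 lay below WT and KO-2 overlapped it (-0.18, adjusted p = 0.357, limma). Cox7c, a small membrane subunit, fell at day 2 (-0.60 ± 0.13, adjusted p = 7.12e-04, limma), and Cox6a1 was lower at day 2 (-0.64) and day 4 (-0.67). The genes not called at day 2 were Cox5a, Cox7a2l, Cox6b2, Cox4i2 and the barely detected Cox6c2 and Cox8c.

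Complex V had 15 of 17 genes lower at day 2, beside 24.2% of all genes, with a median of -0.39. The exceptions were Atp5j (-0.24, adjusted p = 0.159, limma) and Atp5j2 (-0.19, adjusted p = 0.302, limma). At day 0, 4 fell (23.5%, beside 14.4% of all genes and 15.9% of abundant ones). At day 4, 3 fell (17.6%), a share under the 19.2% of all genes and 23.7% of abundant ones. Atp5g1 encodes a precursor of the c subunit of the rotor ring. At day 2 it was at 2834 and 2577 in WT, 1660 and 1503 in KO-1 and 1409 and 1294 in KO-2, with the KO mean at 54.2% of WT (-0.69 ± 0.11, adjusted p = 2.70e-05, limma). Atp5c1, the central stalk subunit, was at 4656 and 3960 in WT and 2137 to 3176 in KO (-0.63 ± 0.11, adjusted p = 1.33e-04, limma). Atp5a1, the alpha subunit of the catalytic head, was at 22862 and 22719 in WT and 17122 to 17416 in KO (-0.39 ± 0.06, adjusted p = 1.86e-05, limma), and this call was lost with quantile normalization (adjusted p = 0.0593). The 3 genes were lower in every KO library of day 2, and none of them passed the test at day 4.

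**Figure D3:**
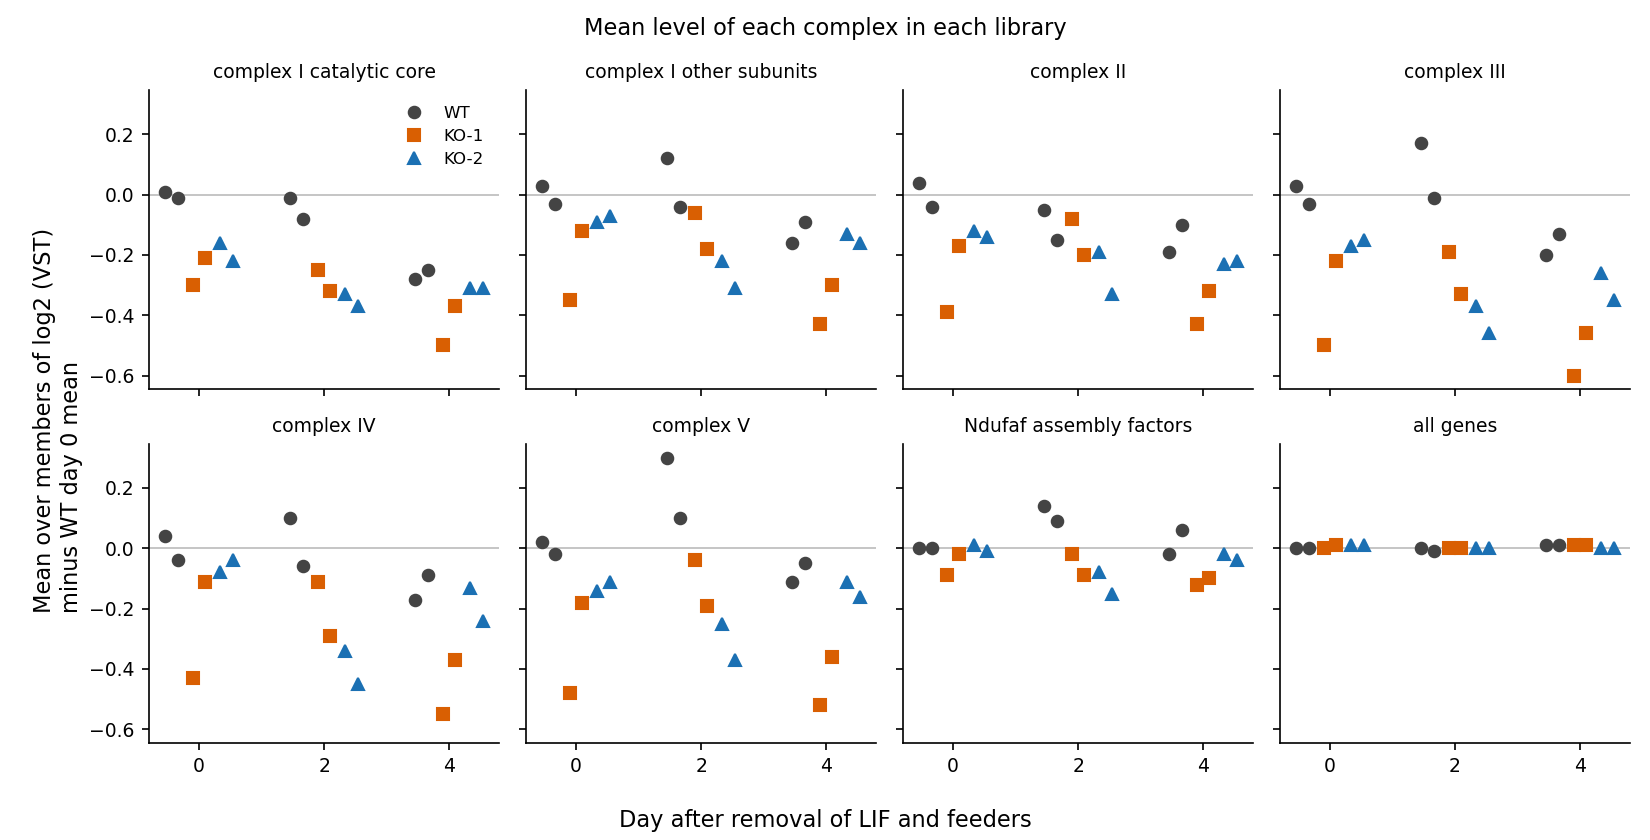
Mean over the members of each class, and over all genes, of the VST value minus the WT mean of day 0 (vertical axis, log2) by day (horizontal axis). Each point is a library of WT, KO-1 or KO-2; KO-2 of day 4 lay near WT in complexes IV and V, while KO-1 replicate 1 of day 0 and of day 4 was the lowest library of its day in complexes III, IV and V.

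None of the 8 Ndufaf assembly factors was called at day 0, where 22 of the 89 subunit genes fell; 1 of the 8 was lower at an unadjusted p under 0.05. At day 2, 3 of 8 fell beside 58 of 89 subunit genes, with medians of -0.11 and -0.29, and at day 4, 1 of 8 fell beside 24. Of all genes, 14.4%, 24.2% and 19.2% fell at days 0, 2 and 4, and the 1 of 8 at day 4 lay under that share. The difference between assembly factors and subunit genes was not tested. The 3 genes called at day 2 were Ndufaf5, Ndufaf6 and Ndufaf7. Ndufaf6, a factor needed for complex I to form, was at 296 and 321 at day 0 in WT and 260 to 303 in KO. At day 2 it was 590 and 588 in WT, 304 and 258 in KO-1 and 250 and 201 in KO-2. At day 4 the groups overlapped again, at 270 and 349 in WT and 273 to 359 in KO. The change at day 2 was -0.59 ± 0.06 (adjusted p = 3.06e-07, limma), with the KO mean at 43.0% of WT, and the KO effect of day 2 differed from those of day 0 and day 4 (adjusted p = 3.04e-04 and 4.49e-05, limma).

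Ndufaf7, an arginine methyltransferase that acts on a core subunit, had 544 and 519 in WT at day 2 and 230 to 330 in KO (-0.45 ± 0.06, adjusted p = 2.88e-06, limma). Its groups were apart at days 0, 2 and 4, with KO means at 82.2%, 52.2% and 86.0% of WT, and it passed the test at day 2 alone. Its KO effect at day 2 also differed from those of day 0 (by -0.31) and day 4 (by 0.36). Ndufaf5, a hydroxylase, fell at day 2 (-0.24 ± 0.07, adjusted p = 0.00704, limma), a call that ended without WT replicate 1 (adjusted p = 0.176) and with the length and GC correction (adjusted p = 0.0591). Ndufaf4 was named after its values were seen, as the single factor called at day 4. It rose in WT from 473 and 551 at day 2 to 1079 and 1164 at day 4, while KO libraries had 454 to 500 and then 488 to 597. At day 4 the KO mean was 49.6% of WT (-0.62 ± 0.05, adjusted p = 8.00e-09, limma), the smallest p of the 97 genes at that day.

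**Figure D4:**
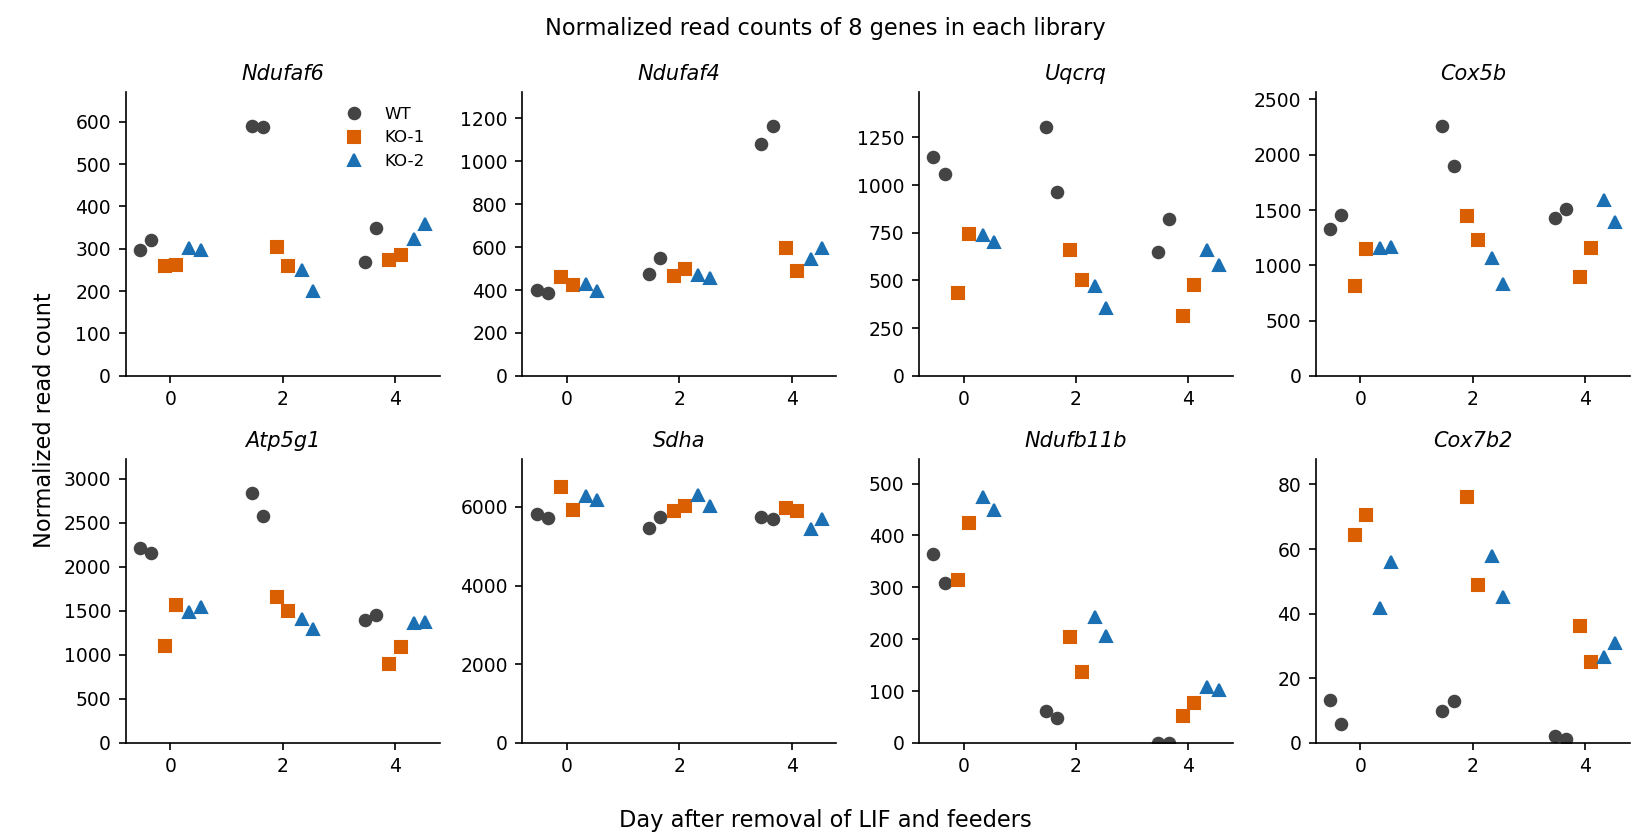
Normalized read counts (vertical axes, from 0) by day (horizontal axes) of Ndufaf6, Ndufaf4, Uqcrq, Cox5b, Atp5g1, Sdha, Ndufb11b and Cox7b2, with 1 point per library of WT, KO-1 or KO-2. WT alone was high for Ndufaf6 at day 2 and for Ndufaf4 at day 4, while Cox7b2 on all days and Ndufb11b at days 2 and 4 were higher in KO.

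The genes that rose in KO were 2 isoforms. Cox7b2 is a paralog of the complex IV subunit gene Cox7b with a restricted expression pattern. It was at 13.4 and 5.8 at day 0 in WT and 41.7 to 70.4 in KO, 9.8 and 13 in WT at day 2 and 45.3 to 76.1 in KO, and 2.0 and 1.3 in WT at day 4 and 25 to 36.1 in KO. The groups were apart on all days and the gene rose on all of them (adjusted p = 1.66e-05, 2.55e-05 and 2.08e-05, limma), although the call at day 4 ended with the length and GC correction (adjusted p = 0.0562). In the same libraries Cox7b, the common isoform, fell at day 2 (-0.64 ± 0.15). Ndufb11b is a second copy of the complex I gene Ndufb11. It had 364 and 308 in WT at day 0 and 315 to 474 in KO, where the groups overlapped, and 61.9 and 48.6 in WT at day 2 and 136 to 243 in KO. At day 4 it had 0 counts in both WT libraries and 51.9 to 108 in KO. Against a floor of 3 counts per library this was at least 34.5-fold higher in KO (a floor for counting error only, in counts that are mostly even at low values), and the gene rose at day 2 (0.50 ± 0.08) and day 4 (0.72 ± 0.08, adjusted p = 3.65e-07, limma). Ndufb11, its near copy, was at 777 and 914 in WT at day 4, where Ndufb11b was at 0, and Ndufb11 itself fell on each day. At days 0 and 2 reads of the pair may have been split between them.

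Ndufa4l2, a hypoxia-inducible relative of Ndufa4, was named after its values were seen because it had the largest change between day 0 and day 2 in WT. It went from 814 and 563 in WT at day 0 to 86.4 and 51.9 at day 2 and 38.2 and 37.3 at day 4. In KO it was 198 to 367 at day 0, 41.7 to 66.3 at day 2 and 2.3 to 10.5 at day 4. KO was below WT at days 0 and 4 (-0.60 and -0.28) and overlapped it at day 2.

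In WT 13 members rose and 7 fell between day 0 and day 2, beside 20.5% and 20.1% of all genes, with a median of 0.06. Those that rose included Uqcrh (0.62), Ndufb8 (0.54), Atp5g3 (0.50), Ndufaf6 (0.46) and Cox5b (0.43), and Ndufa4l2 (-1.28) and Ndufb11b (-0.82) fell most. Between day 2 and day 4, 25 members fell and 1 rose, beside 21.8% and 20.5%, with a median of -0.16. Atp5g1 (-0.71), Atp5a1 (-0.68) and Atp5b (-0.48) of complex V were among those that fell, as were Cox7c (-0.57), Ndufb8 (-0.55), Uqcrc1 (-0.47) and Ndufv2 (-0.44), and Ndufaf4 (0.69) was the 1 that rose. In KO, 10 fell and 4 rose between day 0 and day 2, beside 18.9% and 16.8% of all genes, and 9 fell and 1 rose between day 2 and day 4, beside 11.2% and 12.5%. These KO counts pool clones whose own counts ran in opposite directions. In KO-1, 6 members fell and 16 rose in the first interval (13.9% and 12.4% of all genes) and 35 fell and none rose in the second (8.64% and 11.2%). In KO-2, 55 fell and none rose in the first (18% and 17.7%), and 5 fell and 40 rose in the second (14.3% for both). The difference between the clones over an interval was not itself tested. The WT counts also depended on which KO libraries shared the estimate of the spread: with KO-2 alone in the fit they were 44 and 48 calls, beside 49.2% and 50.5% of all genes, and with the clones as separate groups 33 and 41. For the separate groups the share of all genes is not given here. Single libraries moved the counts too. The 20 calls from day 0 to day 2 in WT became 8 without WT replicate 1 of day 0, 10 without replicate 2 of that day and 11 without WT replicate 1 of day 2. The 26 calls from day 2 to day 4 became 14 without WT replicate 1 of either day. In KO the 14 calls of the first interval became 26 without KO-1 replicate 1 of day 0 and 9 without KO-1 replicate 2 of day 2, and the 10 of the second became 5 without KO-1 replicate 1 of day 4 and 6 without replicate 1 of day 2 of either clone.

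Whether the KO effect itself changed between days was tested as a difference of differences. From day 0 to day 2, 4 members had a more negative effect (Ndufaf5, Ndufaf6, Ndufaf7 and Ndufs4) and 2 a more positive one (Ndufa4l2 and Ndufb11b), beside 11% and 10.8% of all genes. From day 2 to day 4 the effect became more positive for 10 members (Ndufv2, Ndufa6, Ndufab1, Uqcrc1, Uqcrc2, Ndufaf6, Ndufaf7, Atp5a1, Atp5c1 and Atp5g1) and more negative for Ndufaf4, beside 14.1% and 15.0%. These counts depended on how the clones were fitted. With KO-2 alone, 51 members had a more negative effect and 2 a more positive one in the first interval, beside 15.7% and 16.2% of all genes, and 1 a more negative and 61 a more positive one in the second, beside 19.7% and 18%. With KO-1 alone there were 4 and 7 calls in all, and with the clones as separate groups 13 and 22. The shares of all genes in these last fits are not given here, so these counts are not read against a background. In the pooled fit the 6 calls of the first interval became 10 without KO-1 replicate 1 of day 0 and 3 without WT replicate 1 of day 2, and the 11 of the second became 20 without KO-1 replicate 1 of day 4 and 6 without WT replicate 1 of day 4. Atp5a1 went from -0.39 at day 2 to 0.06 at day 4 (difference 0.45 ± 0.08, adjusted p = 3.13e-04, limma). WT fell in this gene, from 22862 and 22719 to 14061 and 13810, while KO went from 17122 to 17416 at day 2 to 14071 to 15108.

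The clones were compared with each other within each day. At day 4, 35 members were lower in KO-1 than in KO-2 and none was higher, beside 5.19% and 7.59% of all genes, and 12 of the 35 belonged to complex V and 12 to the accessory subunits of complex I. The median KO-1 minus KO-2 difference was -0.23. At that day feeder markers summed to 2772 and 3033 in KO-1 and 4789 and 4543 in KO-2, and mesendoderm markers to 856 and 871 in KO-1 and 328 and 394 in KO-2; their part in this difference was not tested. At day 2 none was lower and 1 (Atp5md) higher in KO-1 (median 0.14, beside 0.507% and 0.459% of all genes), and at day 0 none was called (median -0.16, beside 0.169% lower and 0.382% higher). Set against WT on its own, KO-1 had the 50, 41 and 57 lower members given above, beside 14.2%, 20.6% and 19.7% of all genes. KO-2 had 28, 78 and 19, beside 16.5%, 25.7% and 20.9%, so that its count at day 4 lay near the background. The number of calls between the clones at day 4 depended on single libraries. The median difference stayed negative, from -0.29 to -0.15, when single libraries were left out. With the length and GC correction 22 members were lower in KO-1 at day 4. At day 0, 49 were lower in KO-1 when its replicate 2 was left out, which left replicate 1 alone.

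KO-1 replicate 1 of day 0 stood below the other KO libraries of that day. The mean of the 97 genes relative to WT was -0.38 in it, -0.14 in the other KO-1 library and -0.11 and -0.09 in KO-2. Its total was 9644240 counts, the smallest of the KO libraries, and its short minus long deviation was -0.17 against 0.02 to 0.06 in the others. Without it, 17 members were lower in KO at day 0.

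The 13 subunits encoded in mitochondrial DNA were counted separately, and their count of calls at day 4 rested largely on 1 WT library. They were measured as a list beside the 97 nuclear genes, and at that day 10 of them rose in KO and none fell, with a median of 0.48, beside the 18% of all genes that rose. In repeats chosen after seeing the data, the count was 3 without WT replicate 2 of day 4, 8 without WT replicate 1, 4 with each day fitted alone and 5 with KO-1 alone, and with the length and GC correction 8 rose and 2 fell. At day 2, 3 rose (mt-Nd5, mt-Nd6 and mt-Co1; 23.1%, near the share of all genes), with a median of 0.08, and at day 0 none was called. mt-Nd5 of complex I had a mean of 18020 ± 1110 in WT at day 2 and 33220 ± 3990 in KO (SD, n = 2 and 4), with a log2 change of 0.85 ± 0.15 (adjusted p = 1.00e-04, limma), and mt-Co1, the catalytic subunit of complex IV, changed by 0.56 ± 0.13. In terms of library share, the 97 nuclear genes took 1.157% and 1.026% of all counts in WT at day 2 and 0.718% to 0.913% in KO, while the 13 mitochondrial genes took 1.115% and 1.121% in WT and 1.345% to 1.639% in KO. At day 4 the nuclear share was 0.792% and 0.856% in WT and 0.611% to 0.839% in KO, and the mitochondrial share 0.903% and 0.779% in WT and 0.973% to 1.650% in KO. The mitochondrial shares did not overlap between genotypes on any day, and at day 0 they were lower in KO, at 1.541% and 1.762% in WT and 1.381% to 1.478% in KO. mt-Nd3, mt-Nd4l and mt-Atp8 had means under 25 in every group and were not called.

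**Figure D5:**
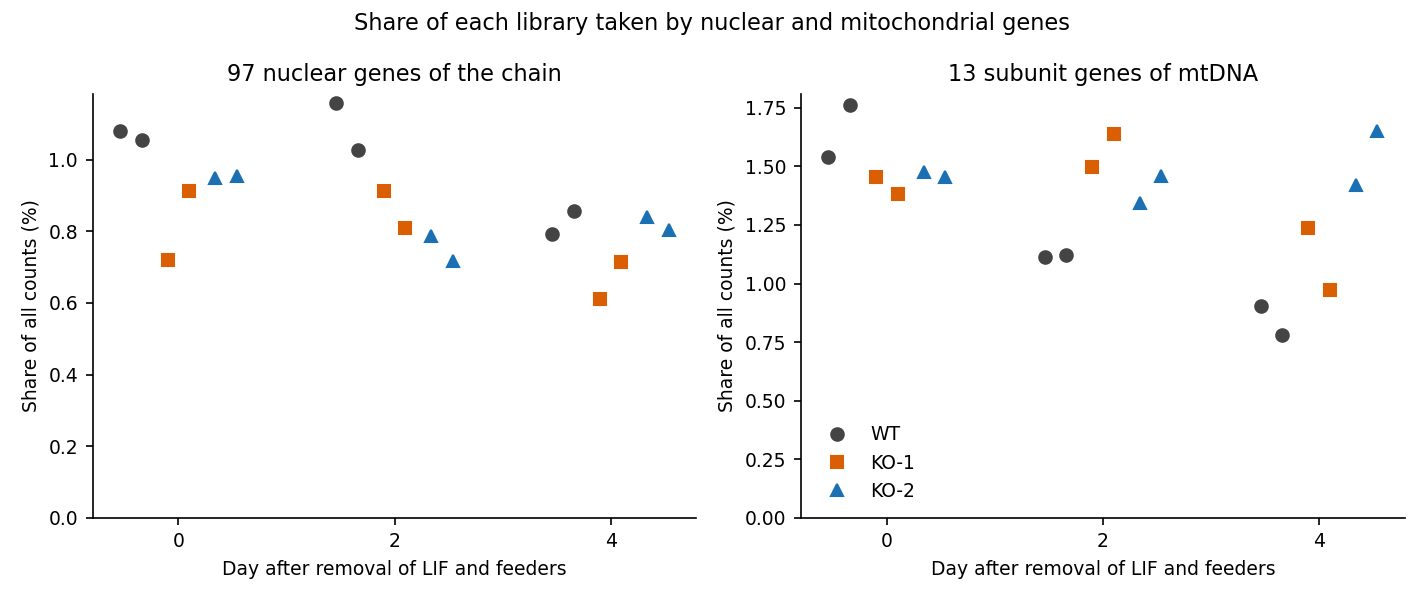
Share of all counts (vertical axes, percent, from 0) taken by the 97 nuclear genes and by the 13 genes of mitochondrial DNA in each library, by day (horizontal axes). At day 2 the nuclear share was lower and the mitochondrial share higher in all 4 KO libraries than in both WT libraries.

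Genes around the chain were counted from lists of the same kind, to be read against the 24.2% of all genes that fell and 21.8% that rose at day 2. Of 10 other complex I assembly factors, 7 fell at day 2 and none rose, among them Dmac1 (-0.48) and Foxred1 (-0.25). Of 6 complex III factors 4 fell (Uqcc2 at -0.47, Uqcc3 at -0.23), of 4 complex II factors 2 (Sdhaf1 at -0.18, Sdhaf3 at -0.19), of 21 complex IV factors 6 with 1 higher (Cox17, a copper chaperone, at -0.25, and Coa6 at -0.23), and of 4 complex V factors 1 with 1 higher (Tmem242 at -0.40 and Atpaf1 at 0.19). The calls of Uqcc2, Uqcc3, Sdhaf1, Sdhaf3, Atpaf1 and Tmem242 were lost without WT replicate 1 of day 2 (adjusted p from 0.0656 to 0.217, limma), and those of Uqcc3 and Coa6 with the length and GC correction (0.248 and 0.122). The 6 of 21 complex IV factors (28.6%) lay near the share of all genes. Among 16 electron carrier genes, for cytochrome c and coenzyme Q synthesis, 8 fell at day 2 and none rose. Cycs, cytochrome c itself, fell on all 3 days: it had a mean of 1754 ± 76.7 in WT at day 2 and 852.5 ± 130 in KO (SD, n = 2 and 4), and its changes were -0.52, -0.73 and -0.82. Coq2 fell by 0.45 on the log2 scale at day 2. Of 13 tricarboxylic acid cycle genes 5 fell and 1 rose at day 2 (Idh3a at -0.44, Suclg1 at -0.40). Of 16 genes for mitochondrial transcription and biogenesis 5 fell (31.2%) and 2 rose; Ssbp1, which binds single-stranded mitochondrial DNA, fell by 0.76 on the log2 scale (adjusted p = 1.42e-09, limma) and Ppargc1b, a coactivator, by 0.27.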

How the data were processed

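RNA-seq of 18 libraries was deposited as 1 table of 20703 genes. Per the labels and the study's methods, the authors trimmed reads with Trim Galore 0.6.7, aligned them with STAR 2.7.11a to mm39, counted nonduplicated primary fragments over exons with featureCounts 2.0.6, removed genes with a mean count under 1 and applied the variance-stabilizing transformation of DESeq2 1.42.0. The deposited values are therefore on a log2 scale, with a floor of 8.359 for 0 counts. Inverting the transformation returned whole counts for 100% of values (tolerance 0.01), and these counts, divided by the recovered size factors, are the normalized counts given. In each library 72.5% to 77.5% of the counts from 1 to 20 were even; the reason was not found, and counts may overstate the number of independent fragments. Of the rows, 40 had no gene symbol and entered the tests.

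Differences were tested with limma 3.58.1 (R 4.3.3) with a trended prior on the log2 values, with 6 groups of genotype and day over all 18 libraries, and 2-sided p-values adjusted by Benjamini-Hochberg over 20703 genes. Clones were compared in a fit with each clone and day as a group. Transcript length and GC content came from GENCODE M21 (GRCm38), matched for 20592 genes (99.5%) and all 97 members; the authors' coordinates are of another build and none is printed from it. Promoter windows came from RefSeq. On simulated counts for the day 2 comparison (20703 genes), 96 of 100 genes lowered by 1 on the log2 scale were called, 50 of 100 lowered by 0.5, and 21 of 20503 unchanged genes. The simulated libraries held no difference between clones and no shift of short genes, and the changed genes all had a mean of 100 or more. These rates may therefore not hold for the real libraries.

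The members and gene lists were chosen with earlier results of these data known. The genes named were, in each class, the 3 with the smallest adjusted p at day 2 among those with a mean of at least 10 (all 4 of complex II), Cox5b and Ndufa1, the 2 strongest of those higher in KO, the highest and lowest in level, those under a mean of 10 by level, and up to 2 genes per list; any others are examples chosen after their values were seen. 1 gene that this rule names is not reported here. Alternatives included other scalings, each clone alone, limma-voom on the recovered counts, a length and GC correction, a replicate block and leaving out each library.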

Additional observations from a re-analysis of the deposited data

Results flagged for a closer look

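In KO-1 replicate 1 of day 0 the VST value lay far below the other 3 KO libraries of that day for Sdhc (10.43), Sdhd (10.31), Uqcrq (9.94), Cox5b (10.44), Cox7c (10.79), Atp5g1 (10.73), Atp5c1 (11.42) and Ndufa1 (9.18), by Dixon's test at its 95% level for 4 samples. Ndufaf5 was far above the rest in KO-2 replicate 1 of day 4 (9.44). These are 9 of 90 groups tested, and chance flags about 1 group in 20. The 8 genes of day 0 share 1 library, so they are not 8 separate observations.

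The KO effect differed between days in a test of the difference itself (limma with Benjamini-Hochberg adjustment). From day 0 to day 2 it changed by -0.36 for Ndufaf5, -0.52 for Ndufaf6, -0.31 for Ndufaf7 and 0.36 for Ndufb11b on the log2 scale. From day 2 to day 4 it changed by 0.46 for Atp5c1, 0.59 for Ndufaf6, 0.31 for Uqcrc2, 0.37 for Uqcrc1, 0.48 for Atp5g1, 0.42 for Ndufv2, 0.36 for Ndufaf7 and 0.45 for Atp5a1. Ndufaf4, named after its values were seen, changed the other way in that interval (-0.56 ± 0.08, adjusted p = 1.11e-05).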

How the results depend on the processing

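The numbers of members lower in KO (22, 61 and 25 at days 0, 2 and 4) ranged from 10 to 30, 22 to 67 and 7 to 32 when single libraries were left out, and the medians from -0.22 to -0.11, -0.38 to -0.23 and -0.2 to -0.08. The ranges of calls were 8 to 25 for WT day 2 against day 0, 14 to 35 for WT day 4 against day 2, 9 to 26 and 5 to 13 for the same intervals in KO, and 3 to 10 and 6 to 20 for the change of the KO effect. Members lower in KO-1 than in KO-2 ranged from 0 to 49 at day 0, 0 to 0 at day 2 and 0 to 49 at day 4, with medians from -0.29 to -0.04, 0.09 to 0.2 and -0.29 to -0.15. At an adjusted p under 0.01 (limma), 11, 40 and 12 members were lower in KO, 8 were called for WT day 2 against day 0, 8 and 5 for the KO intervals, 3 and 6 for the change of the KO effect, and 5 were lower in KO-1 at day 4. With KO-1 alone, 50 and 57 were lower at days 0 and 4, 22 and 35 were called for the KO intervals and 7 for the change of the effect from day 2 to day 4. With KO-2 alone the complex IV median at day 4 was 0.00, and calls were 44 and 48 for the WT intervals, 55 and 45 for the KO intervals and 53 and 62 for the change of the effect. With the clones as separate groups, 41 were lower at day 0 and 41 at day 4, and calls were 33 and 41, 30 and 16, and 13 and 22 in the same order. Quantile normalization gave 40 calls for WT day 4 against day 2 and 18 for the change of the effect from day 2 to day 4. The length and GC correction gave 23 and 16 for the KO intervals, 18 for the change of the effect from day 2 to day 4, and 22 lower in KO-1 at day 4 (median -0.13). On recovered counts limma-voom gave a median of -0.52 at day 2, 0.29 for KO-1 minus KO-2 at day 2 and -0.48 at day 4. Among genes above the 25th percentile of the mean, 1 member was lower in KO-1 at day 0. Except where given above, the shares of all genes in these fits are not given, so these counts are not read against a background. The cause was not tested in any of these.

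Replicate numbers were not stated to mark a shared culture. Deviations of same-numbered libraries from their group means had a mean correlation of -0.048 over 36 pairs of groups (-0.615 to 0.638). With the replicate block 22, 59 and 23 members were lower in KO. The shares of all genes in the fits with a replicate block are not given here. The replicate block with the length and GC correction gave 22 calls for KO day 2 against day 0, 18 for the change of the effect from day 2 to day 4, and 18 lower in KO-1 at day 4 (median -0.13). Each day had 2 WT libraries, so a permutation of samples within a day cannot reach the threshold, and the calls rest on the variance shared over all genes and groups. The alternatives on the KO-1 against KO-2 comparison were chosen after seeing the data.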
